A study of Mus musculus with 6 samples.

Results

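The Bcl2 family regulators of apoptosis were followed across a sort of mouse skin keratinocytes into cells with and without the surface protein CD34. The members were 10 genes chosen by name for their known roles, with earlier results of these data known, and found on the arrays through the accession or the description of each probe: Bcl2, Bcl2l1, Bcl2l2 and Mcl1, which favour survival, and Bax, Bak1, Bok, Bcl2l11, Bad and Bid, which favour death. They were read by 11 of the 20868 non-control probes, 1 for each gene and a second for Bad. All 10 passed the filter on dim probes and were among the 19969 features tested, of which 9250 were named genes and the rest probes without a gene name. A p-value in what follows was adjusted over all of these features, not over the family.

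Keratinocytes came from the skin of mice aged 7 weeks, for which the labels name no strain or genotype and no treatment before harvest. After trypsin digestion the cells were stained and sorted into alpha6+CD34+ cells, called stem and progenitor cells in the labels, and alpha6+CD34- cells, called basal cells. Both populations therefore carried the alpha-6 integrin, which anchors basal keratinocytes to the basement membrane, and differed in CD34, a surface protein of the hair follicle bulge. The fractions are defined by these antibodies alone. RNA of both was compared on 2-colour arrays of 60-base oligonucleotides in 3 biological replicates, each hybridised in both dye orientations, which gave 6 arrays and n = 3. The labels do not say whether a replicate was 1 animal or a pool, so the p-values measure the spread between these 3 preparations.

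The family decides whether the outer membrane of the mitochondrion stays intact. Bax, Bak and Bok can open pores in it and let cytochrome c out. The pro-survival proteins Bcl-2, Bcl-xL, Bcl-w and Mcl-1 bind and restrain Bax and Bak. The BH3-only proteins, named after the short domain they carry, relay stress signals by binding pro-survival or pore-forming members. Once outside, cytochrome c assembles with Apaf-1 and caspase-9 into the apoptosome, which activates further caspases. In skin this balance acts in the hair follicle, whose lower part regresses by apoptosis in each hair cycle, and Bcl-2 is a protein long associated with follicle and basal keratinocytes.

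Ratios are given on the log2 scale, with CD34+ cells in the numerator. A gene passed the test, or was called, at a Benjamini-Hochberg adjusted p under 0.05 in a limma fit over all features. Of the 10 members, 2 passed, beside 12.1% of all features, both of them pore-forming effectors and in opposite directions. Bok was higher in CD34+ cells and Bak1 was lower. For orientation, the 250 bases upstream of their annotated starts are shown, read from RefSeq promoter sequences of build GRCm38.p6, in which all 10 members were found by symbol. The Bak1 window lies at chr17:27028628-27028877 on the minus strand and the Bok window at chr1:93685325-93685574 on the plus strand, and each is written 5′ to 3′ in the direction of the gene. Capitals mark the letters of an Sp1-type GC box, GGGCGG read on the opposite strand.
Bak1: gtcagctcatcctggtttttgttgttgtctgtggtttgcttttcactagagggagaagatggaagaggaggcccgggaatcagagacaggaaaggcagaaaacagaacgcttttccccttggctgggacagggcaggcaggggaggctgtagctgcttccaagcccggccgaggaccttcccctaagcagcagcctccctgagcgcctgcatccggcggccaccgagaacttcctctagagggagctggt
Bok: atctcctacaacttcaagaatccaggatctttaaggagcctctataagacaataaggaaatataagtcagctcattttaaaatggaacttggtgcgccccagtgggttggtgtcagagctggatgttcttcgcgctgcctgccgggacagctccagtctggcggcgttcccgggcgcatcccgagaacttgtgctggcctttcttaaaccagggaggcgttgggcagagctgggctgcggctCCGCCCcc
The Bak1 window was 58.4% G and C with 8 CpG dinucleotides, and the Bok window 55.2% with 12, against medians of 52.4% and 6 over 32851 promoter windows of the same length. Motifs were sought on both strands as exact letters. Bok held 1 match to the GC box, overlapping no other motif, which occurs in 32.7% of all windows, and Bak1 held none. Neither window held the CCAAT box (its own letters, in 33.8% of windows), the TATA box (TATAAA, in 12.4%), the E-box (CACGTG, in 6.02%) or the Lef/Tcf motif (CTTTGA, in 13.8%). This says only that these letters are not in these bases.

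The sort and the arrays were checked before the members were read. Cd34 itself was higher in CD34+ cells on all 6 arrays, with replicate log2 ratios of 5.83, 6.27 and 5.42, a mean of 5.84 ± 0.43 (SD, n = 3) and a limma adjusted p of 0.00360. Itga6, the integrin gated on in both fractions, was lower by a mean log2 ratio of -1.18 ± 0.27 (SD, n = 3; limma adjusted p = 0.0178). Of 5 measured markers of basal keratinocytes 2 rose, Itgb4 (0.38) and Col17a1 (0.67), and 2 fell, Itga6 and Krt14 (-1.11), and their summed intensity was 41596 to 54670 in CD34+ cells against 68799 to 77136 in CD34- cells. Of 9 measured markers of bulge stem cells, with the sorted Cd34 itself among them, 8 rose. The summed intensity of the 9, Cd34 included, was 127943 to 163666 in CD34+ cells against 44142 to 57441 in CD34- cells. On each array, 92.9% to 97.7% of probes stood well above background in each population.

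Markers of other cells that a skin preparation can hold were also present. Fibroblast markers rose for 2 of 6 genes, with summed intensities of 1812 to 3190 in CD34+ and 1005 to 1380 in CD34- cells, and melanocyte markers for 2 of 7, with 1209 to 1816 against 975 to 1483. Langerhans cell markers fell for 1 of 7, with 1809 to 2559 against 2053 to 2793, while a second probe of H2-Eb1, one of these markers, passed as higher (0.49, where the brightest read -0.21). Suprabasal keratinocyte markers rose for 1 and fell for 2 of 5, with 6453 to 16225 against 4308 to 7407, and a second probe of Krt1, one of those that fell, read 0.17 where the brightest read -2.28. No T cell marker of 5 and no endothelial marker of 3 passed the limma test, with 3 and 0 at an unadjusted p under 0.05. Their part in the results on the Bcl2 family was not tested, and in sorted populations fewer cells of a type and less RNA per cell cannot be told apart.

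**Figure D1:**
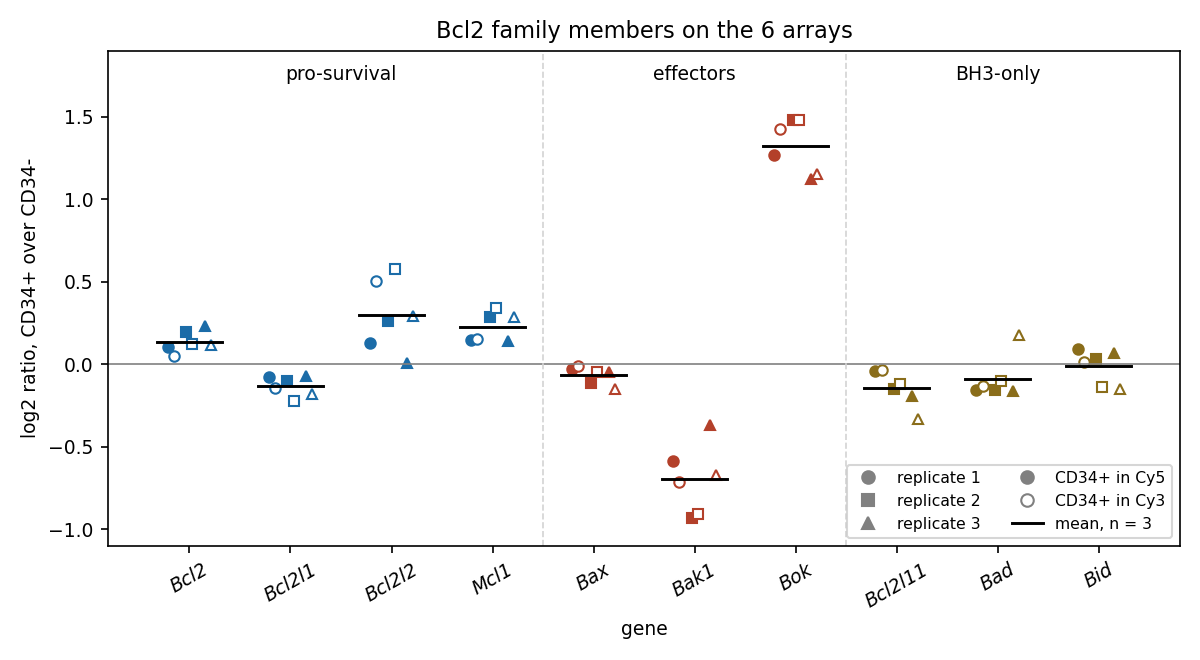
Log2 ratio of CD34+ over CD34- (vertical axis) for each of the 10 members (horizontal axis, grouped by role) on each of the 6 arrays. Symbols give the replicate, filled symbols the arrays with CD34+ in Cy5 and open symbols those with CD34+ in Cy3, and bars the mean of 3 replicates. All 6 Bok points lie between 1.12 and 1.48 and all 6 Bak1 points between -0.93 and -0.37, whereas the other 8 members stay within -0.33 and 0.57.

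Among the pro-survival members, none of 4 passed the limma test, against 12.1% of all features tested, while all 4 had an unadjusted p under 0.05, as did 30.7% of all features. Bcl2l2 encodes Bcl-w. Its log2 intensity was 8.91, 8.94 and 8.72 in the CD34+ cells of replicates 1, 2 and 3 and 8.59, 8.52 and 8.57 in their CD34- cells. Every CD34+ value lay above every CD34- value. The log2 ratios of 0.32, 0.42 and 0.15 averaged 0.30 ± 0.14 (SD, n = 3), a 1.23-fold difference, with a limma adjusted p of 0.0676.

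The Bcl2l2 probe carried a dye effect. Its log2 ratio averaged 0.13 on the arrays with CD34+ in Cy5 and 0.46 on those with CD34+ in Cy3, and the dye term of -0.16 passed at a limma adjusted p of 0.0170, as it did for 14.8% of all features. It was the only member whose dye term passed, the other 9 having adjusted p-values of 0.0636 or more. The average over both orientations cancels a dye effect. With the CD34+ in Cy3 arrays alone the difference passed (0.46, limma adjusted p = 0.0362), and without replicate 3 it passed as well (0.37, limma adjusted p = 0.0210). It did not pass with CD34+ in Cy5 alone (0.13, limma adjusted p = 0.246), without replicate 1 (0.28, limma adjusted p = 0.229) or without replicate 2 (0.23, limma adjusted p = 0.328).

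Mcl1 encodes a short-lived protein that holds Bak in check. Its log2 intensity was 11.14, 11.22 and 11.15 in CD34+ cells and 10.99, 10.90 and 10.94 in CD34- cells, again with no overlap between the populations. The share of all features without overlap is not given here, so a lack of overlap is a description only, for Mcl1 as for the other members. The replicate ratios were 0.15, 0.31 and 0.21, with a mean of 0.22 ± 0.084 (SD, n = 3), a 1.17-fold difference and a limma adjusted p of 0.0726. All 6 arrays gave a ratio above 0.

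Bcl2, the founding member of the family, had replicate ratios of 0.076, 0.16 and 0.18 and a mean of 0.14 ± 0.053 (SD, n = 3; limma adjusted p = 0.145). Its log2 intensities of 10.01, 10.26 and 10.13 in CD34+ cells overlapped those of 9.93, 10.10 and 9.96 in CD34- cells. The transcripts of Bcl2l1 encode Bcl-xL and, by another splice choice, the pro-death Bcl-xS. Among the 4 pro-survival members, Bcl2l1 alone had ratios below 0. They were -0.11, -0.16 and -0.13, with a mean of -0.13 ± 0.026 (SD, n = 3; limma adjusted p = 0.129). Which of these splice forms the Bcl2l1 probe reads was not examined, since probe sequences were not used. Ratios of Bcl2 were above 0 and those of Bcl2l1 below 0 on all 6 arrays, so each held its sign although neither passed. The Bcl2l1 probe was dim, and its log2 ratio ran from -0.21 on the deposited ratios to -0.052 with no background correction.

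**Figure D2:**
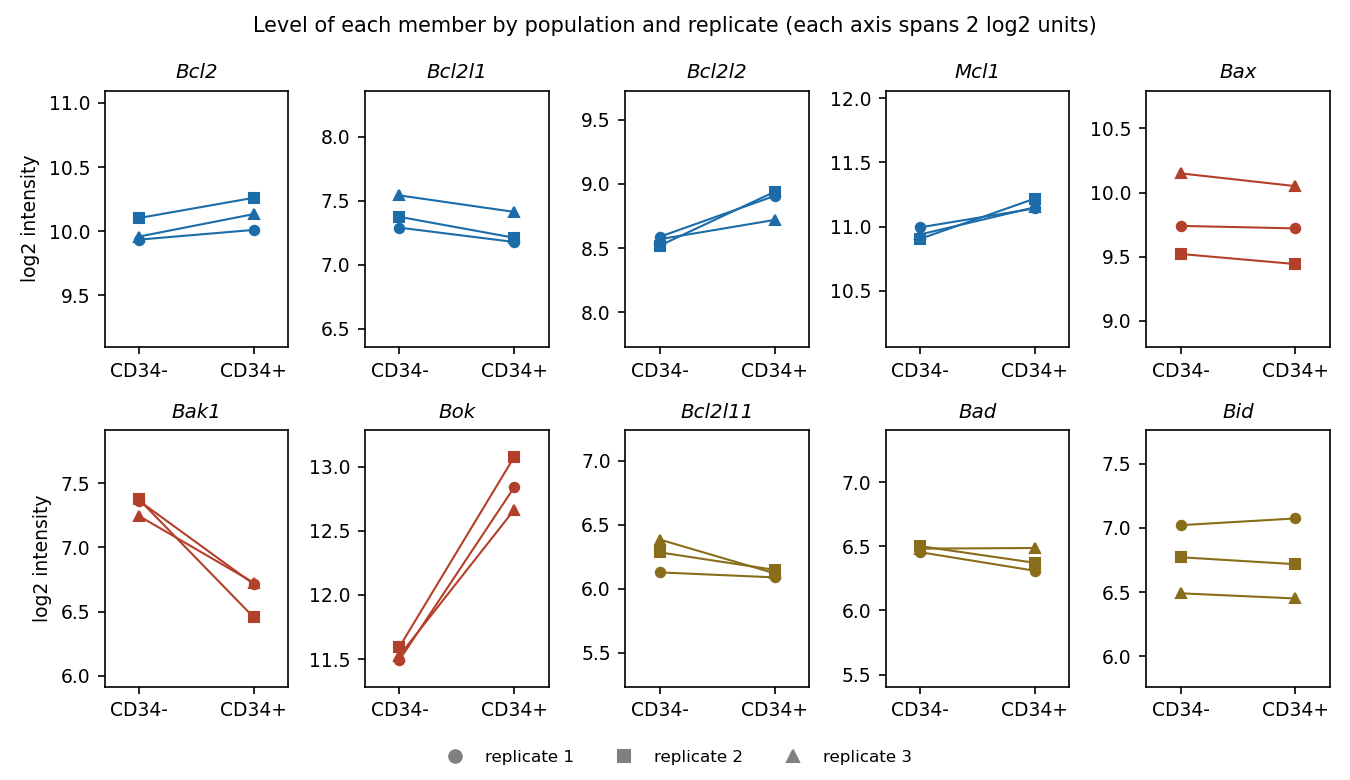
Log2 intensity (vertical axis, after background correction and loess normalisation) of each member in CD34- and CD34+ cells (horizontal axis), 1 line and symbol for each of 3 replicates, every panel spanning the same number of log2 units. Bok climbs from 11.49 to 11.60 in CD34- cells to 12.66 to 13.08 in CD34+ cells and Bak1 descends from 7.25 to 7.37 to 6.45 to 6.73, while the lines of Bax and Bid are nearly flat. The height of a panel is that of its probe, so levels are not compared between genes.

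The effectors held the only members that passed, 1 of 3 in each direction. Over all features, 5.45% were called higher and 6.67% lower in CD34+ cells, so the family's total of 2 in 10 (20.0%) is not read as a result about the family. Bok encodes an effector related to Bax and Bak that resides largely at the endoplasmic reticulum. Its log2 intensity was 12.84, 13.08 and 12.66 in the CD34+ cells of replicates 1, 2 and 3 and 11.49, 11.60 and 11.53 in their CD34- cells. The populations were separated by more than the spread within either.

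The replicate ratios of Bok were 1.35, 1.48 and 1.14, and their mean of 1.32 ± 0.17 (SD, n = 3) is a 2.50-fold higher level in CD34+ cells. The 95% interval of the log2 ratio ran from 1.10 to 1.54, and the limma adjusted p was 0.0102. Ranked by log2 ratio, Bok was number 148 from the top of the 19969 features. Its probe was bright, with background-subtracted intensities of 2423 to 10255 over both channels of the 6 arrays, and was saturated on 0 of them. Averaged over the arrays of 1 dye orientation, the ratio was 1.29 with CD34+ in Cy5 and 1.35 with CD34+ in Cy3.

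Without replicate 1 the log2 ratio of Bok was 1.31 with a limma adjusted p of 0.0895, and on that pair of replicates none of the 19969 features passed, Cd34 included, although 4603 had an unadjusted p under 0.05. Without replicate 2 or without replicate 3 Bok kept its call.

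Bak1 encodes Bak, an effector that sits in the outer membrane of the mitochondrion. Its log2 intensity was 6.71, 6.45 and 6.73 in the CD34+ cells of replicates 1, 2 and 3 and 7.36, 7.37 and 7.25 in their CD34- cells, with no overlap. The ratios were -0.65, -0.92 and -0.52. Their mean of -0.70 ± 0.20 (SD, n = 3) is a 1.62-fold lower level in CD34+ cells, with a 95% interval from -0.94 to -0.45 and a limma adjusted p of 0.0245. Bak1 was number 607 from the bottom of the ranking by log2 ratio.

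The Bak1 probe was dim. Its background-subtracted intensities were 40.2 to 109 in CD34+ and 105 to 164 in CD34- channels, though well above background on all 6 arrays in both, so the size of its difference moves with how background is treated. A fixed offset of 50, added to steady the log ratios of dim spots, pulls such ratios towards 0. The log2 ratio was -1.28 from the deposited ratios (limma adjusted p = 0.0212) and -1.23 with no offset added (limma adjusted p = 0.0190), and with no background correction it was -0.22 and did not pass (limma adjusted p = 0.0854). The call was also lost without replicate 1 (-0.72, limma adjusted p = 0.111) and without replicate 2 (-0.59, limma adjusted p = 0.0737). The sign was negative on all 6 arrays.

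Bax, the cytosolic effector that moves to mitochondria when activated, had log2 intensities of 9.72, 9.44 and 10.05 in CD34+ cells and 9.74, 9.52 and 10.15 in CD34- cells. Replicates differed from each other far more than the populations did. The ratios of -0.019, -0.079 and -0.099 averaged -0.066 ± 0.042 (SD, n = 3; limma adjusted p = 0.396), with a 95% interval from -0.19 to 0.057.

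Of the BH3-only members, none of 3 passed the limma test, and 0 of 3 had an unadjusted p under 0.05. Over all features these shares were 12.1% and 30.7%. Bcl2l11 encodes Bim, which can bind every pro-survival member. Its ratios were -0.039, -0.14 and -0.26, with a mean of -0.15 ± 0.11 (SD, n = 3; limma adjusted p = 0.202). The probe was among the dimmest of the family, well above background on 4 of 6 arrays in CD34+ and on 5 of 6 in CD34- cells, and the deposited ratios gave -0.45 and an offset of 0 gave -0.42, without passing in either.

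Bad, which is kept inactive by phosphorylation and binding to 14-3-3 proteins, had ratios of -0.14, -0.13 and 0.0052 and a mean of -0.090 ± 0.083 (SD, n = 3; limma adjusted p = 0.333). Its second, dimmer probe gave -0.16, -0.26 and 0.034, with a mean of -0.13 ± 0.15 (SD, n = 3; limma adjusted p = 0.314 over all probes). Both probes were below 0 in replicates 1 and 2 and slightly above it in replicate 3. Bid, which caspase-8 cleaves to carry a death receptor signal to mitochondria, had ratios of 0.052, -0.054 and -0.040 and a mean of -0.014 ± 0.058 (SD, n = 3; limma adjusted p = 0.871). Its sign changed with the dye, at 0.064 with CD34+ in Cy5 and -0.093 with CD34+ in Cy3.

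The pro-survival members were then set against the pro-death members. In replicates 1, 2 and 3 the mean log2 ratio of the 4 pro-survival genes was 0.11, 0.18 and 0.10, and that of the 6 pro-death genes was 0.091, 0.027 and 0.036. The difference was 0.017, 0.16 and 0.066, with a mean of 0.079 ± 0.070 (SD, n = 3). It was above 0 in each replicate but on 5 of 6 arrays only, and its mean barely exceeds the spread between replicates. With 1 replicate left out it lay between 0.041 and 0.11, and it was 0.25 from the deposited ratios, 0.24 with no offset added and -0.043 with no background correction.

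That small difference conceals a split among the pro-death genes. Without Bok, the 5 others had ratios between -0.70 and -0.014, and the pro-survival mean exceeded theirs by 0.27, 0.45 and 0.29, on average 0.33 ± 0.098 (SD, n = 3). Without Bak1 the difference was below 0, at -0.13, -0.034 and -0.045, on average -0.070 ± 0.053 (SD, n = 3). With class medians in place of means it was 0.24 ± 0.10 (SD, n = 3). These choices were made after the values were seen, and no test was made of the class difference. Among the 10 members the extremes were Bok and Bak1, with Bok minus Bak1 at 2.00, 2.40 and 1.66 log2 units and a mean of 2.02 ± 0.37 (SD, n = 3).

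Over the 4 pro-survival genes the median log2 ratio was 0.18, over the 3 BH3-only genes -0.090 and over the 3 effectors -0.066. The median over all features was 0.0040, and a typical feature lay 0.10 from 0 in either direction. No test was made of these medians.

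**Figure D3:**
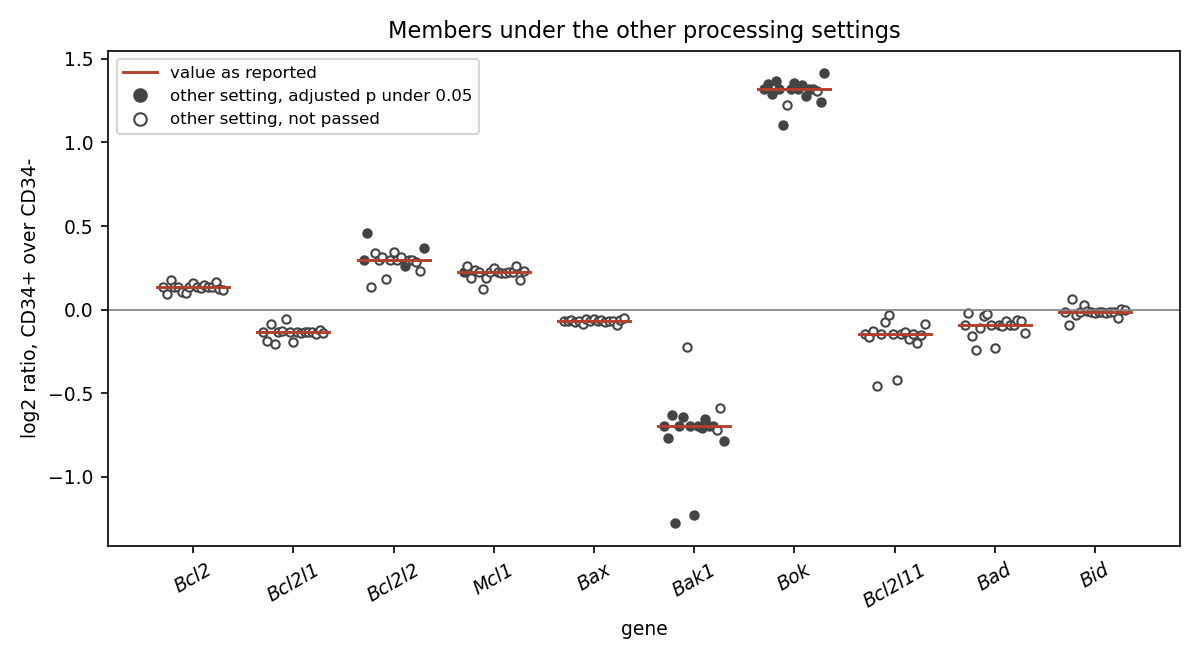
Log2 ratio of CD34+ over CD34- (vertical axis) of each member (horizontal axis) under the value reported (bar) and under the other processing settings (points, filled where the limma adjusted p was under 0.05), 17 settings for each gene and 16 for Bcl2l11. Bok stays between 1.11 and 1.41 and passes under 15 settings, and Bak1 ranges from -1.28 to -0.22 and passes under 14. Bcl2l2 passes under 4 settings and Mcl1 under 1, and no other member passes under any.

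Other genes of the family and of the steps around it were taken from lists set out by role, 101 genes of which 89 were measured. In CD34+ cells 2 of these were higher and 17 lower, together 21.3% against 12.1% of all features, and their median log2 ratio was -0.094. The lists were chosen with earlier results of these data known, so this share is a description. With the channels treated as unpaired and no replicate block, 0 were higher and 1 lower, with no background correction 0 were called in either direction (33 at an unadjusted p under 0.05), and with scaling between arrays 1 was higher and 10 lower. Without replicate 1 none of the 89 passed in limma although 27 had an unadjusted p under 0.05, and without replicate 2 just 2 passed, both lower.

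Among 10 other members of the family that were measured, 2 were lower in CD34+ cells and none higher, 20% against 12.1% of all features. Both encode BH3-only proteins that p53 can induce. Pmaip1, which encodes Noxa, a partner of Mcl-1, had replicate log2 ratios of -1.68, -1.96 and -0.89, with a mean of -1.51 ± 0.55 (SD, n = 3; limma adjusted p = 0.0297), the largest in size of any family gene measured. Bbc3, which encodes Puma, had ratios of -0.48, -0.37 and -0.30 and a mean of -0.38 ± 0.092 (SD, n = 3; limma adjusted p = 0.0292). The median of the list was -0.13, with 3 genes above 0 and 7 below. Bcl2a1b was among those below, at -0.50 ± 0.40 (SD, n = 3), without passing (limma adjusted p = 0.130). The calls of Pmaip1 and Bbc3 were lost without replicate 1 (limma adjusted p of 0.132 and 0.126) and without replicate 2 (0.0878 and 0.149).

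The caspases and apoptosome genes held 1 rise and 6 falls among 16 measured, together 43.8% against 12.1% of all features. Their median log2 ratio was -0.069. Cycs, the gene of cytochrome c, was lower by a log2 ratio of -0.56 ± 0.23 (SD, n = 3; limma adjusted p = 0.0400), and its second probe read -0.25 ± 0.36 without passing. Casp4 fell most, at -1.49 ± 0.63 (SD, n = 3; limma adjusted p = 0.0372), and the rise was Casp1, at 0.62 ± 0.27 (SD, n = 3; limma adjusted p = 0.0443). Both of these encode inflammatory caspases that act in pyroptosis, not in the mitochondrial pathway. Others that fell, named here after their values were seen, were the initiator Casp8 (-0.49) and Dffa (-0.27), which encodes the inhibitor of the caspase-activated nuclease. Apaf1 (0.10) and Casp9 (0.033), the core of the apoptosome, did not pass.

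The caspase inhibitors held 2 falls and no rise among 8 measured, 25% against 12.1% of all features, with a median of 0.047. Birc3, which encodes cIAP2, read -0.70 ± 0.27 (SD, n = 3; limma adjusted p = 0.0354), and Birc5, which encodes survivin, a protein that also serves in mitosis, read -0.54 ± 0.21 (SD, n = 3; limma adjusted p = 0.0378). Xiap (0.040), a direct inhibitor of caspases, did not pass.

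Of 22 measured binding partners and regulators of the family, 1 was higher and 3 lower, together 18.2% against 12.1% of all features. Their median was -0.13. The 3 that fell encode 14-3-3 proteins, adaptors that hold phosphorylated Bad in the cytosol. Ywhaz read -1.19 ± 0.20 (SD, n = 3; limma adjusted p = 0.0132), Ywhag read -0.90 ± 0.27 (SD, n = 3; limma adjusted p = 0.0230) and Ywhab read -0.40 ± 0.13 (SD, n = 3; limma adjusted p = 0.0372). The other 14-3-3 genes measured, Ywhae (-0.22), Ywhaq (0.27), Ywhah (-0.11) and Sfn (-1.25 ± 0.78), did not pass. The rise was Bag3, a co-chaperone that binds Bcl-2, at 0.39 ± 0.066 (SD, n = 3; limma adjusted p = 0.0234).

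Of 12 measured genes of p53 and its apoptosis targets, 1 was lower and none higher, 8.33% against 12.1% of all features. Their median was -0.029, and 6 had an unadjusted p under 0.05, beside 30.7% of all features. The fall was Fas, a death receptor, at -0.56 ± 0.17 (SD, n = 3; limma adjusted p = 0.0277). Pmaip1 and Bbc3, which p53 can also induce and which were called lower, were counted with the other family members. They are not among these 12, so the share of this list depends on how the lists were drawn. Trp53 itself read -0.22 ± 0.071 (SD, n = 3) and did not pass (limma adjusted p = 0.0658). Among 21 kinases and transcription factors upstream of the family, 3 were lower and none higher, 14.3% against 12.1% of all features. Their median was -0.11. Stat3, an activator of Mcl1 and Bcl2l1 transcription, read -0.77 ± 0.17 (SD, n = 3; limma adjusted p = 0.0192). Foxo1, which can induce Bcl2l11, read -0.77 ± 0.15 (SD, n = 3; limma adjusted p = 0.0172), and Stat5a, another activator of Bcl2l1, read -0.34 ± 0.086 (SD, n = 3; limma adjusted p = 0.0338). The family members named as their targets did not pass.

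**Figure D4:**
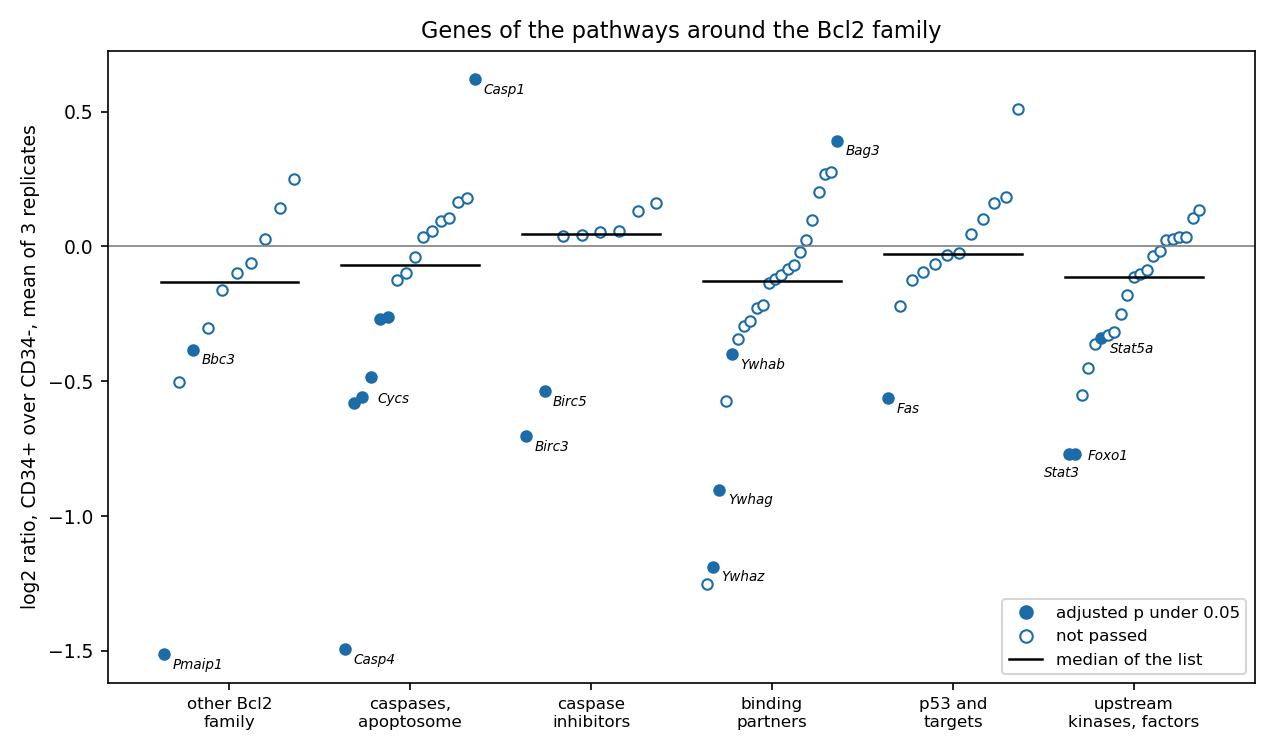
Mean log2 ratio of CD34+ over CD34- over 3 replicates (vertical axis) for each measured gene of 6 lists around the Bcl2 family (horizontal axis, genes sorted by value within a list), filled where the limma adjusted p was under 0.05, with a bar at the median of each list. Filled points lie mostly below 0, 17 against 2 above it, and the medians lie between -0.13 and 0.047.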

How the data were processed

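Mean spot and local background intensities were read by Agilent Feature Extraction, per the file headers, version A.7.5.1 for replicates 1 and 2 and A.6.1.1 for replicate 3. Deposited log10 ratios of Cy5 over Cy3, background-subtracted and dye-normalised by that software per the file headers, served as an alternative, and the deposited value table is their negative (column medians 0, 0.00187, 0, 0.00274, 0.00257 and 0; largest difference 0). The deposited flags for saturated, outlying and well-above-background spots are the software's. The labels number replicates 1 and 2, and the remaining arrays were taken as replicate 3.

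With limma 3.58.1 in R 4.3.3, background was corrected by normexp (offset 50) and arrays were normalised by loess, with controls and outlier spots at weight 0. Signs were turned to CD34+ over CD34-, and spots and then dye-exchanged arrays were averaged. A probe entered if 1 population stood well above background in at least 2 of 3 replicates, which left out 472 of 20868, with 182 more for outlier marks. Log2 ratios were tested against 0 (lmFit, eBayes, Benjamini-Hochberg, threshold 0.05). The number of arrays limits the precision. The fits were tested on simulated data. Of the probes, 9757 were named by accession, symbol or description, and the brightest stood for a gene. From each list up to 3 rises and 3 falls that passed with 1 sign on all arrays were named, or else the smallest adjusted p. Pairing lies within arrays, whose channel deviations correlated with r of 0.80, 0.72 and 0.81 in replicates 1 to 3. Members and lists were chosen with earlier results of these data known. Alternatives, 17 planned and 3 added after the data were seen, changed the ratios, background, normalisation, filter, dyes, replicates and model. Protein and probe sequences were not used here, and some genes of the lists are counted but not reported by name.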

Additional observations from a re-analysis of the deposited data

How the results depend on the processing

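The 10 members, the pathway genes named by the rule, the counts of members and pathway genes called and the class difference were recomputed under 17 settings planned (16 for Bcl2l11) and, for the class difference, 3 chosen after seeing the data. Bok kept its direction in all 17 and its call in 15, with 1.22 and an adjusted p of 0.0544 with no background correction, and 1.24 to 1.41 with 1 replicate left out. Bak1 kept its direction in all 17 and its call in 14, with -0.22 with no background correction and -0.79 to -0.59 with 1 replicate left out. Bid, never past the threshold, turned above 0 with median centring (0.028), with CD34+ in Cy5 only (0.064) and without replicate 2 (-0.047 to 0.0060 with 1 replicate left out). The other 7 members kept their sign in every setting in which they were tested. Of the pathway genes, Cycs and Stat5a kept their call in 10 of the 17 settings, and Bbc3 and Birc3 in 11. Casp1, Casp4, Birc5, Bag3 and Ywhab kept it in 12, Fas, Stat3 and Foxo1 in 13, and Pmaip1, Ywhaz and Ywhag in 14. With no background correction 0 members were called higher and 0 lower, 0 of the 89 pathway genes were called either way in limma (33 at an unadjusted p under 0.05), and 16 features in all against 2421. Members called higher numbered 2 with CD34+ in Cy3 only, 3 with the 6 arrays fitted with a dye term and a random replicate block, and 2 with the software version as a term. With 1 replicate left out, 0 to 2 members were called higher and 0 to 1 lower, and 0 to 6 pathway genes higher and 0 to 23 lower. Pathway genes called higher and lower were 1 and 10 with scaling between arrays, and those higher were 5 both with the 6-array fit and with the software version term. In the unpaired fit with no replicate block, the log2 ratios of Bok (1.32, adjusted p = 0.00834) and Bak1 (-0.70, adjusted p = 0.0364) stayed called, while pathway genes came to 0 higher (21 unadjusted in either direction) and 1 lower, and all features to 548. All features called were 0 without replicate 1, 314 without replicate 2 and 4208 without replicate 3, 4245 with the 6-array fit and 4758 with the software version term. The pro-survival minus pro-death difference was 0.24 with an offset of 0, 0.25 on the deposited ratios, -0.043 with no background correction, 0.24 with class medians, 0.33 without Bok and -0.070 without Bak1. The cause of these shifts was not tested. Low signal over background limits what can be said of Bcl2l1, Bak1, Bcl2l11, Bad and Bid.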
